A study of Homo sapiens with 48 samples.

Results

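The genes described here are 10 components of macroautophagy, chosen by gene symbol: ULK1, BECN1, WIPI1, ATG3, ATG5, ATG7, ATG12, MAP1LC3B, GABARAPL1 and SQSTM1. All 10 were listed in both deposited tables, among 11145 genes measured in ribosome-protected fragments (RPFs), 11947 genes measured in total cytoplasmic RNA and 10836 genes present in both. The cells were SW480, a human colorectal adenocarcinoma line with mutant APC, transduced with a doxycycline (DOX)-inducible shRNA. The shCTRL line carried a non-targeting shRNA, the shEIF2B1 line an shRNA against the mRNA of eIF2Bα and the shEIF2B4 line one against the mRNA of eIF2Bδ. Each line was kept uninduced with DMSO (-DOX) or induced with 1 µg/ml DOX for 5 days (+DOX), so that 6 groups of 4 replicates, grown in separate weeks, gave 24 lysates and 48 libraries. Each line is a transduced and selected population, not a clone, and shCTRL is the control for both knockdown lines. Deposited values are regularized log2 values without read counts, so the depth behind each value is unknown and a log2 value is a level relative to other libraries of the same table.

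In macroautophagy, a membrane sheet grows around cytoplasmic cargo, closes into an autophagosome and fuses with lysosomes, where the cargo is degraded. The ULK1 kinase complex starts the process, the class III PI3-kinase complex with Beclin 1 marks the membrane with PI3P, WIPI proteins read that mark, and conjugation enzymes attach ATG8 proteins such as LC3B to the membrane lipid. eIF2B is the nucleotide exchange factor of the initiation factor eIF2, and a loss of its activity is known to lower general translation while mRNAs of stress-responsive factors such as ATF4 are translated more. With constitutive shRNAs in SW480 cells, the study reported lower global protein synthesis after knockdown of eIF2Bδ but not of eIF2Bα. ATF4 and the related CHOP are known to drive transcription of several autophagy genes, MAP1LC3B and SQSTM1 among them, under amino acid or endoplasmic reticulum stress.

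A response is how far DOX moved a gene in a knockdown line beyond how far it moved that gene in shCTRL, estimated with limma from the 16 libraries of both lines with the replicate as a block. Genes whose p, adjusted by Benjamini-Hochberg over the whole table, was under 0.1 were called, and every p is two-sided. Both responses subtract the same shCTRL libraries and are therefore not independent of each other. The targeted genes checked the labels: EIF2B1 fell by 0.53 in RPFs (SE 0.13, adjusted p = 0.0109) and by 0.67 in total RNA (SE 0.15, adjusted p = 0.0263) in response to its shRNA, lower in 4 of 4 replicates in both. EIF2B4 fell by 0.49 in total RNA (SE 0.14, adjusted p = 0.0634), and its RPF response of -0.48 (SE 0.19, adjusted p = 0.236) was not called although it was negative in 4 of 4 replicates. Of 7 markers of colorectal epithelium 6 were listed, with VIL1 not listed and CDH1 low in both tables, no endothelial or fibroblast marker was listed, and of the leukocyte markers CD14 alone appeared, in RPFs and at a low level. The mean log2 value of an RPF library was 6.99 to 7.02 in shEIF2B4 and 7.12 to 7.18 in shCTRL and shEIF2B1, a shift that cancels in a response but not in a comparison of uninduced lines.

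Among the promoters of the 10 genes in RefSeq (GRCh38.p14, 250 bases before to 50 bases after a start, 13 windows), a single match was found for the 2 motifs searched on both strands. The first motif, TGATGNAA, is of the type bound by ATF4 with C/EBP proteins. It was in none of the 13 windows, against 3.62% of all 35116 promoters. At that share 13 windows are too few to read a lack of such sites from this. The second, TCACGTGA, is of the type bound by TFEB, a transcription factor of lysosomal and autophagy genes, and was in 0.980% of all promoters. It was in the ATG3 window, 5 bases from the start. The stretch is shown because ATG3 is one of the genes called below, in RPFs and TE but not in total RNA (chr3:112561940-112561969, minus strand, motif in capitals).
ATG3: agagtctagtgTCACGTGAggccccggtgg
The motif reads the same on both strands and these letters say nothing of binding in SW480 cells.

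Levels of the 10 genes were set beside each other per kb, by subtracting log2 of the CDS length in RPFs and of the transcript length in total RNA, in uninduced shCTRL cells. In RPFs, SQSTM1, which encodes the cargo receptor p62, had the highest level at 10.96 ± 0.16 (SD, n = 4), followed by GABARAPL1 at 9.50 ± 0.19 and ATG12 at 8.47 ± 0.08. MAP1LC3B at 8.07 ± 0.59 overlapped with ATG12 above it and with ATG3 at 7.42 ± 0.42 below it, and ATG3 overlapped with ATG5 at 7.17 ± 0.22. BECN1 (6.69 ± 0.11), WIPI1 (6.10 ± 0.27), ATG7 (5.17 ± 0.15) and ULK1 (4.00 ± 0.35) followed without overlap of their 4 libraries. The RPF level of ATG12 rests on a transcript whose CDS has 222 bases, and without the length correction ATG12 was 8th of the 10. In total RNA per kb of transcript the order was ATG12, ATG3, MAP1LC3B, SQSTM1, ATG5, BECN1, GABARAPL1, WIPI1, ATG7 and ULK1, from 9.97 ± 0.09 to 1.95 ± 0.12, and of the neighbours in that order MAP1LC3B and SQSTM1 overlapped. Without the length correction, the mean log2 value of ULK1 in total RNA was above those of 6.56% of all genes.

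**Figure D1:**
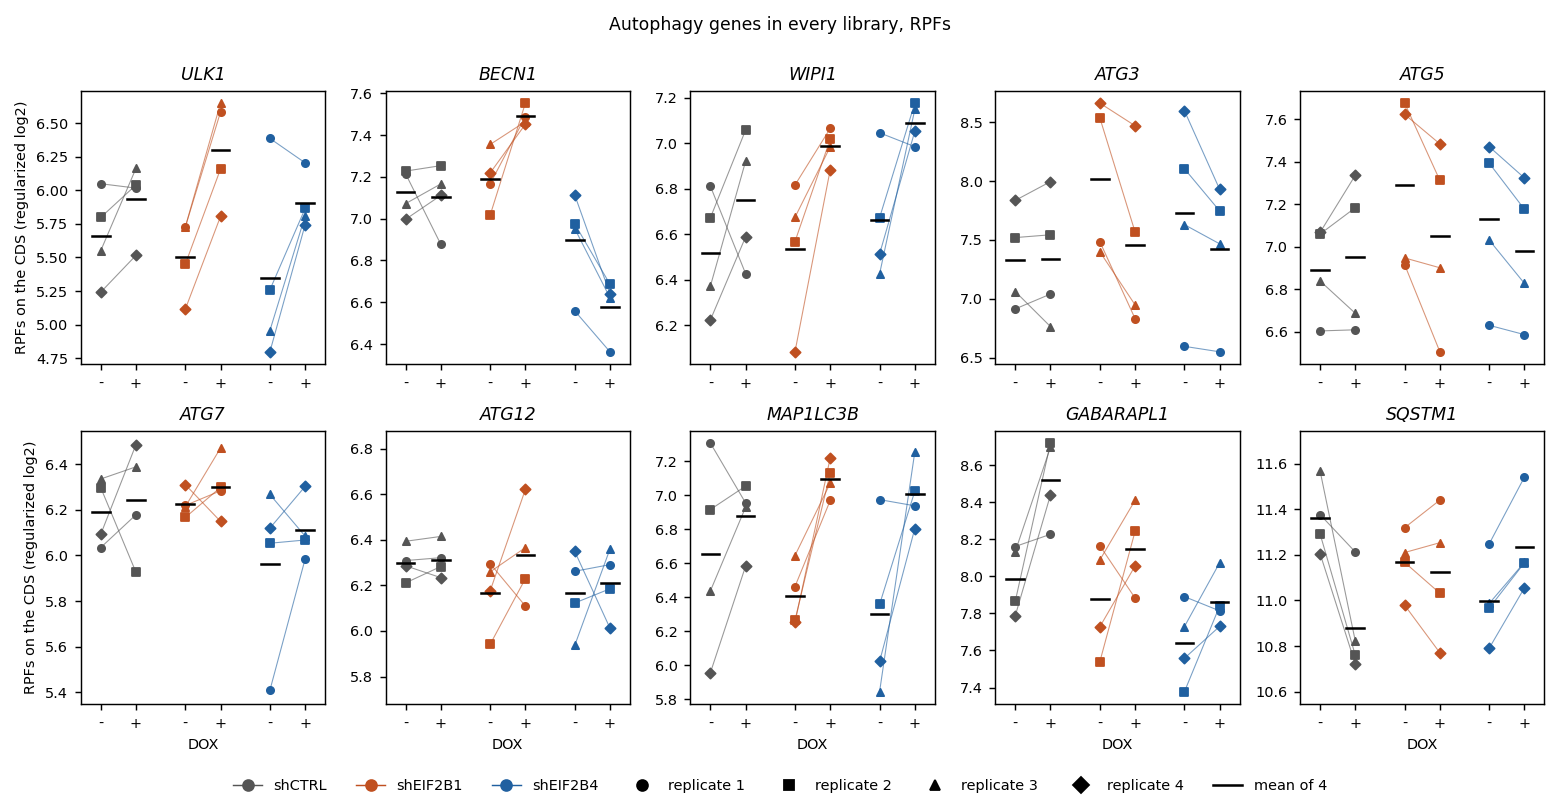
RPF values (regularized log2, y axis) of the 10 autophagy genes in each line without (-) and with (+) DOX; each marker is one library, its shape the replicate, thin lines join the libraries of one week and black bars are means of 4. SQSTM1 fell in all 4 shCTRL replicates, where its mean went from 11.36 to 10.88, and GABARAPL1 rose in all 4, from 7.99 to 8.52.

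In RPFs after shEIF2B1, the responses of ULK1 and SQSTM1 were called above 0 and that of ATG3 below 0, and the other 7 genes did not pass the test. SQSTM1 itself did not rise in that line, where its RPFs changed by -0.05, and its response came from a fall in shCTRL. These 3 of 10 genes stand against 27.3% of all genes called in that comparison, 12.0% higher and 15.3% lower. The median response of the 10 was 0.19, against -0.01 over all genes, and 7 of the 10 responses were above 0, against 48.6% of all genes. After shEIF2B4, SQSTM1 was called in RPFs, 1 of 10 against 2.75% of all genes, with a median of 0.06 against -0.02. In total RNA none of the 10 was called after shEIF2B1 by limma, against 3.47% of all genes, and 1 of the 10, MAP1LC3B, had an unadjusted p under 0.05, against 15.3% of all genes. After shEIF2B4 MAP1LC3B was called in total RNA, 1 of 10 against 5.40% of all genes. The median total RNA response of the 10 was 0.04 after either knockdown, against -0.00 and 0.00 over all genes.

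RPF responses moved with the base composition of the coding sequence. Across 10750 genes the correlation of the RPF response with CDS GC content had a Pearson r of 0.63 after shEIF2B1 and 0.55 after shEIF2B4, and genes are not independent replicates. For the total RNA response of 11488 genes, r was 0.17 after shEIF2B1 and -0.24 after shEIF2B4. Among the 10 genes, CDS GC content was highest in ULK1 (66.0%) and SQSTM1 (61.6%), the genes called higher after shEIF2B1, and lowest in ATG3 (41.9%) and ATG5 (39.0%). The other 6 lay between 47.5% and 53.2%. With the GC trend of each library removed and the replicate block kept, none of the 10 was called by limma in RPFs after shEIF2B1, where 8.21% of all genes were and 2 of the 10 had an unadjusted p under 0.05. The responses of ULK1, SQSTM1 and ATG3 were 0.23, 0.23 and -0.25 (adjusted p = 0.452, 0.321 and 0.388). The largest of the 10 were then MAP1LC3B at 0.62 (adjusted p = 0.153) and BECN1 at 0.41 (adjusted p = 0.103), the latter just above the threshold. The same correction kept SQSTM1 in RPFs and MAP1LC3B in total RNA after shEIF2B4, at 0.57 (adjusted p = 0.0354) and 0.82 (adjusted p = 0.0091), where 1.96% and 5.55% of all genes were called. In total RNA it also called SQSTM1 higher at 0.37 (adjusted p = 0.0945) and BECN1 lower at -0.29 (adjusted p = 0.0935), so that 3 of the 10 were called there. What part base composition has in the responses was not tested otherwise.

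ULK1, the kinase that starts autophagosome formation (ENSG00000177169.10; chr12:131894651-131923167, plus strand, GRCh38), separated without overlap on induction of shEIF2B1. Its RPF values in replicates 1 to 4 were 5.73, 5.45, 5.73 and 5.11 without DOX and 6.59, 6.16, 6.65 and 5.81 with DOX, so that every induced library lay above every uninduced one. In shCTRL they were 6.05, 5.80, 5.55 and 5.24 without and 6.02, 6.04, 6.16 and 5.52 with DOX, and the groups overlapped. The response was 0.52 (SE 0.16, adjusted p = 0.033), positive in 4 of 4 replicates, and weekly values ran from 0.31 to 0.89. Without replicate 1 it was 0.40 (adjusted p = 0.191) and without replicate 4 it was 0.56 (adjusted p = 0.109). Of all genes 14.0% and 13.7% were called in those fits, against 27.3% with all replicates. After shEIF2B4 the RPF response was 0.28 (SE 0.25, adjusted p = 0.608), with 3 of 4 replicates positive. There replicate 1 stood apart, since its uninduced value was 6.39 while the other 3 were between 4.80 and 5.26. The same library stood apart in other genes, as in BECN1 (6.56 against 6.95 to 7.11) and ATG7 (5.41 against 6.05 to 6.27), while ATG12 lay within its group. Without replicate 1, 14.5% of all genes were called in RPFs after shEIF2B4, against 2.75% with it. The reason was not tested. Total RNA of ULK1 rose within the shEIF2B1 line by 0.26 (SE 0.07, adjusted p = 0.015), in a comparison with 34.4% of all genes called, where the induced libraries, 4.52 to 4.69, all lay above the uninduced, 4.28 to 4.39, as did 13.8% of all genes. Against shCTRL that change was 0.12 (SE 0.10, adjusted p = 0.626).

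BECN1 encodes Beclin 1, a core subunit of the class III PI3-kinase complex (ENSG00000126581.13; chr17:42810134-42833350, minus strand), and was the gene of the set called in the contrast of the 2 knockdowns. Its RPF values in shEIF2B1 were 7.17, 7.02, 7.35 and 7.22 without and 7.49, 7.55, 7.46 and 7.45 with DOX, without overlap. In shEIF2B4 they were 6.56, 6.97, 6.95 and 7.11 without and 6.36, 6.69, 6.62 and 6.64 with DOX, lower in each week. Neither response was called, at 0.33 (SE 0.14, adjusted p = 0.117) and -0.30 (SE 0.16, adjusted p = 0.374). Total RNA of BECN1 in shEIF2B4 was 8.68, 8.77, 8.81 and 8.95 without DOX and 8.41, 8.40, 8.39 and 8.38 with DOX, all below, as for 12.0% of all genes. In shEIF2B1 the total RNA values were 8.82 to 8.94 without and 8.80 to 9.01 with DOX, and overlapped. The difference between the responses was 0.45 in total RNA (SE 0.09, adjusted p = 0.0634), shEIF2B1 above shEIF2B4 in 4 of 4 replicates, one of 7 genes or 0.0586% called higher in that contrast. It lost its call without any one of the 4 replicates, with adjusted p above 0.1 in each, and at a threshold of 0.05. Of all genes at most 0.0167% were called in the fits without a replicate, and 0.0335% passed at 0.05. With the GC trend removed, limma called 1 of the 10 genes in this total RNA contrast (lowest adjusted p = 0.0335), against 0.148% of all genes. The RPF difference of BECN1 was 0.62 (SE 0.15, adjusted p = 0.41), in a contrast with 1 gene called by limma among all, or 0.00897%.

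WIPI1, a PI3P-binding protein of the growing membrane, rose on induction within both knockdown lines, and its corrected responses were not called. In RPFs of shEIF2B1 its values were 6.82, 6.57, 6.67 and 6.08 without and 7.07, 7.02, 6.98 and 6.88 with DOX, without overlap, and the change within the line was 0.45 (SE 0.12, adjusted p = 0.00327), against 49.4% of all genes called within that line. Total RNA changed by 0.34 in shEIF2B1 (SE 0.09, adjusted p = 0.0122) and by 0.42 in shEIF2B4 (SE 0.09, adjusted p = 0.0029), higher in 4 of 4 replicates of each. Within each of these lines 34.4% of all genes were called in total RNA. In shCTRL, WIPI1 total RNA was also higher in 4 of 4 replicates with DOX, by 0.29 (SE 0.09, adjusted p = 0.119). RPF responses of 0.22 and 0.20 and total RNA responses of 0.05 and 0.13 followed shEIF2B1 and shEIF2B4, and none was called.

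ATG3, the E2-like enzyme that transfers ATG8 proteins to phosphatidylethanolamine (ENSG00000144848.11; chr3:112532509-112562046, minus strand), had the lowest RPF response of the 10 after shEIF2B1. RPF values in shEIF2B1 were 7.49, 8.54, 7.40 and 8.66 without DOX and 6.83, 7.57, 6.95 and 8.47 with DOX, lower in each week, although the 2 groups overlapped. In shCTRL they were 6.91, 7.52, 7.06 and 7.84 without and 7.04, 7.54, 6.76 and 8.00 with DOX. Replicates 2 and 4 were the highest in all of these groups. The response was -0.57 (SE 0.18, adjusted p = 0.0297), negative in 4 of 4 replicates, and lost its call without replicate 1 (-0.50, adjusted p = 0.129) and without replicate 2 (-0.43, adjusted p = 0.126). Without these replicates 14.0% and 24.4% of all genes were called, against 27.3% with all of them. ATG3 RPFs were higher in uninduced shEIF2B1 than in uninduced shCTRL by 0.69 (SE 0.12, adjusted p = 0.000814), and the induced means of the 2 lines were 7.45 and 7.34. The fall ran from a raised uninduced level. Total RNA of ATG3 had responses of 0.03 and 0.04 to shEIF2B1 and shEIF2B4 (95% confidence intervals -0.23 to 0.28 and -0.19 to 0.28).

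The ubiquitin-like ATG12, its partner ATG5 and ATG7, the E1-like enzyme of both conjugation systems, were not called in any response. ATG5 RPFs after shEIF2B1 were -0.30 (SE 0.14, adjusted p = 0.145), negative in 3 of 4 replicates, and like ATG3 its values were higher in replicates 2 and 4 of every group. In uninduced shEIF2B1, ATG5 RPFs were above uninduced shCTRL by 0.40 (SE 0.10, adjusted p = 0.00585). ATG7 gave RPF responses of 0.02 and 0.09, and ATG12 gave 0.15 and 0.03. These ATG12 values rest on the 222-base CDS of the transcript that represents the gene, and say nothing of other coding sequences of ATG12. Total RNA responses of these 3 genes lay between -0.08 and 0.11 in both knockdowns.

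MAP1LC3B encodes LC3B, the ATG8 protein most used as an autophagosome marker (ENSG00000140941.14; chr16:87383995-87404779, plus strand), and its mRNA rose after shEIF2B4. Total RNA values in shEIF2B4 were 10.07, 10.07, 9.71 and 10.06 without DOX and 10.46, 10.73, 10.77 and 10.79 with DOX, so that all induced libraries lay above all uninduced ones, as for 14.6% of all genes. In shCTRL they were 10.43, 10.49, 10.48 and 10.16 without and 10.07, 10.35, 10.58 and 10.03 with DOX, and overlapped. The response was 0.85 (SE 0.16, adjusted p = 0.005), a 1.80-fold rise on the regularized scale, higher in 4 of 4 replicates with weekly values of 0.75 to 0.98. The call was kept under each of the 13 alternatives run, at 0.71 to 0.88. Uninduced shEIF2B4 cells began 0.41 below uninduced shCTRL (SE 0.11, adjusted p = 0.102), lower in 4 of 4 replicates, and the induced mean was 10.69 against 10.39 in uninduced shCTRL. After shEIF2B1 the total RNA response was 0.44 (SE 0.18, adjusted p = 0.241), with values of 9.97, 9.91, 10.21 and 10.13 without and 10.64, 10.00, 10.28 and 10.51 with DOX. The difference between the knockdowns was -0.41 (95% confidence interval -0.79 to -0.02, adjusted p = 0.367) and did not pass the test over all genes.

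RPFs of MAP1LC3B were higher with DOX in both knockdown lines but varied widely in the uninduced libraries. In shEIF2B1 they were 6.46, 6.27, 6.65 and 6.25 without and 6.97, 7.13, 7.07 and 7.22 with DOX, without overlap, while uninduced shCTRL alone spanned 5.96 to 7.31. In shEIF2B4 they were 6.97, 6.36, 5.84 and 6.02 without and 6.94, 7.02, 7.25 and 6.80 with DOX. The responses of 0.46 (SE 0.24, adjusted p = 0.181) and 0.48 (SE 0.26, adjusted p = 0.376) were not called. Of the 10 genes, 4 had RPFs above all uninduced libraries in induced shEIF2B1 (ULK1, BECN1, WIPI1 and MAP1LC3B), where this held for 8.20% of all genes.

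**Figure D2:**
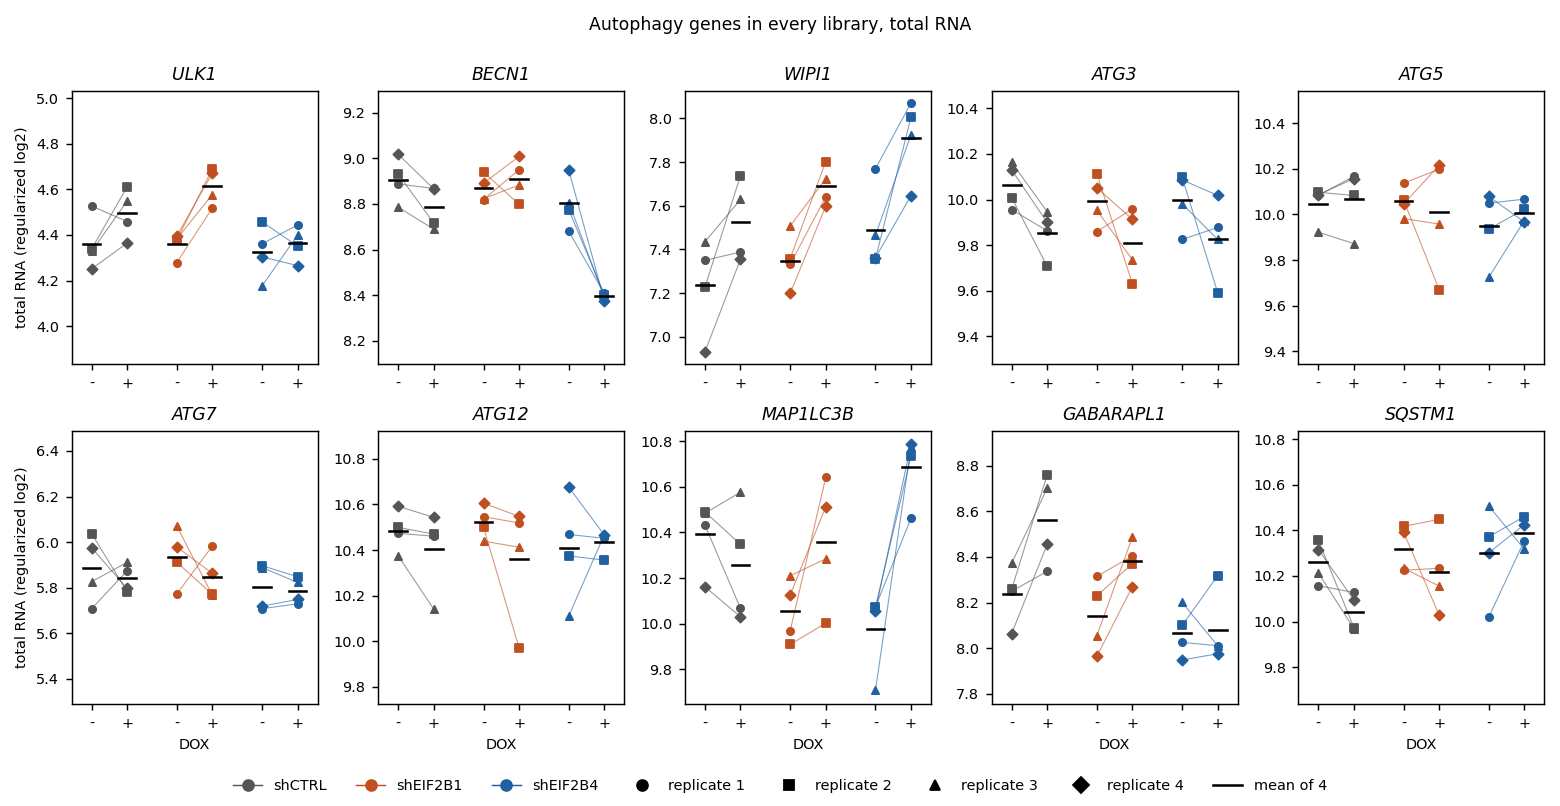
Total RNA values (regularized log2, y axis) of the same genes and libraries; markers, lines and bars are as in the plot of RPFs. MAP1LC3B separated without overlap in shEIF2B4, from a mean of 9.98 to 10.69, and BECN1 went from 8.80 to 8.39 in the same line.

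GABARAPL1, the second ATG8 gene of the set, rose on DOX in shCTRL itself. RPF values in shCTRL were 8.16, 7.86, 8.13 and 7.79 without and 8.23, 8.72, 8.70 and 8.44 with DOX, without overlap, as in 2.27% of all genes. The change was 0.53 (SE 0.12, adjusted p = 0.0434), and in total RNA it was 0.33 (SE 0.08, adjusted p = 0.0785), higher in 4 of 4 replicates in both. Both calls were lost without replicate 2, 3 or 4. The share of all genes called then fell from 9.85% to at most 0.0359% in RPFs, and from 4.44% to at most 1.39% in total RNA. Within shEIF2B1 it also rose, by 0.27 in RPFs (SE 0.12, adjusted p = 0.0809) and 0.24 in total RNA (SE 0.09, adjusted p = 0.0712), where 49.4% and 34.4% of all genes were called. Corrected for shCTRL, RPFs gave -0.27 after shEIF2B1 and -0.31 after shEIF2B4, total RNA gave -0.09 and -0.32, and none was called.

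SQSTM1, which tethers ubiquitinated cargo to ATG8 proteins (ENSG00000161011.20; chr5:179806398-179838078, plus strand), was the gene called in RPFs after both knockdowns. Its RPF values in shCTRL were 11.38, 11.29, 11.57 and 11.21 without and 11.21, 10.76, 10.82 and 10.72 with DOX, lower in each week. In shEIF2B1 they were 11.32, 11.17, 11.21 and 10.98 without and 11.44, 11.03, 11.25 and 10.77 with DOX, higher in 2 and lower in 2 weeks. In shEIF2B4 they were 11.25, 10.97, 10.99 and 10.79 without and 11.54, 11.17, 11.17 and 11.06 with DOX, higher in each week, with overlapping groups. The shCTRL change was -0.48 (SE 0.11, adjusted p = 0.0425), the change in shEIF2B1 was -0.05 (SE 0.10, adjusted p = 0.739) and that in shEIF2B4 was 0.23 (SE 0.11, adjusted p = 0.143). The responses were thus 0.44 to shEIF2B1 (SE 0.13, adjusted p = 0.0281) and 0.72 to shEIF2B4 (SE 0.14, adjusted p = 0.0139), each positive in 4 of 4 replicates, and in both the larger term was the fall in shCTRL. The first was lost without replicate 3 (0.32, adjusted p = 0.179), and the second without replicate 2, 3 or 4, when adjusted p was 0.165, 0.176 and 0.274 at responses of 0.71, 0.65 and 0.71. The share of all genes called went from 27.3% to 18.7% for the first. For the second it went from 2.75% to 0.691%, 0.592% and 0.386%. The shCTRL fall itself lost its call without replicate 2, 3 or 4, where at most 0.0359% of all genes were called. Total RNA of SQSTM1 had responses of 0.12 (SE 0.12, adjusted p = 0.684) and 0.31 (SE 0.12, adjusted p = 0.177).

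**Figure D3:**
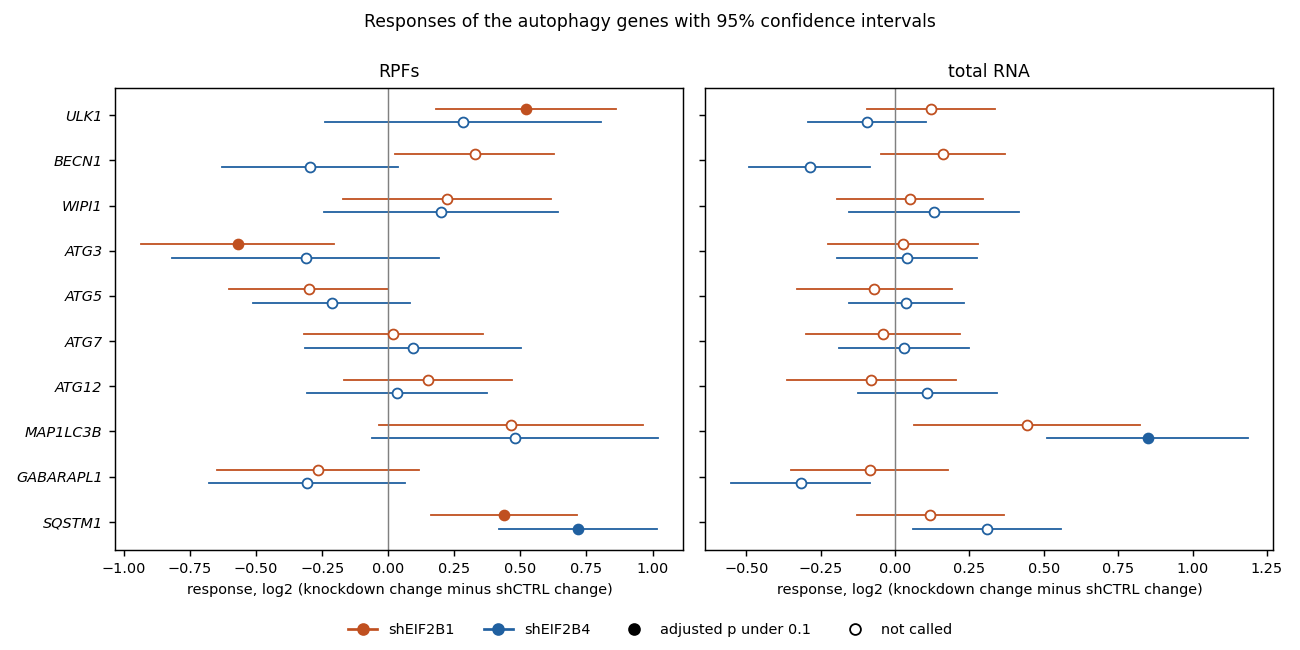
Responses (log2, x axis) of the 10 genes to shEIF2B1 and shEIF2B4 with 95% confidence intervals, in RPFs and in total RNA; filled circles were called at an adjusted p under 0.1. ULK1, SQSTM1 and ATG3 were called in RPFs after shEIF2B1, SQSTM1 in RPFs and MAP1LC3B in total RNA after shEIF2B4.

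Changes on DOX in shCTRL and differences between uninduced lines set the frame of these responses. In shCTRL, 2 of the 10 genes were called in RPFs (9.85% of all genes) and 1 in total RNA (4.44% of all genes), as given for SQSTM1 and GABARAPL1. Between uninduced shEIF2B1 and shCTRL, ATG3 and ATG5 were called higher in RPFs, 2 of 10 against 45.9% of all genes, and the difference of all genes had a Pearson r of -0.81 with CDS GC content. With the GC trend removed none of the 10 was called there by limma, where 2 of them had an unadjusted p under 0.05. Between uninduced shEIF2B4 and shCTRL, SQSTM1 was lower by 0.36 (SE 0.10, adjusted p = 0.0292) and GABARAPL1 by 0.35 (SE 0.13, adjusted p = 0.065), 2 of 10 against 26.6% of all genes, where the median of all genes was -0.13. With each library centred on its median these 2 were not called, and ATG3 and ATG5 were called instead, against 13.0% of all genes. No member was called between uninduced lines in total RNA by limma, where 0.00837% and 1.69% of all genes were called in shEIF2B1 and shEIF2B4, and 1 and 3 of the 10 had an unadjusted p under 0.05.

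Translation efficiency (TE) is the log2 RPF value of a lysate after subtraction of its log2 total RNA value, and since the tables were normalized separately only its differences between groups can be read. ATG3 had a TE response of -0.60 to shEIF2B1 (SE 0.19, adjusted p = 0.0817), lower in 4 of 4 replicates, the single call among the 10 against 7.10% of all genes. That call was kept under 5 of 13 alternatives, at -0.60 to -0.38, and was lost without any one of the 4 replicates. Without replicates 1 to 4 in turn, 0%, 12.6%, 0.397% and 0.185% of all genes were called. None of the 10 was called in TE after shEIF2B4 by limma, where 0.0923% of all genes were, and 1 of them, SQSTM1, had an unadjusted p under 0.05 (0.41, SE 0.17). For MAP1LC3B the TE responses were 0.02 (95% confidence interval -0.49 to 0.53) and -0.37 (-0.80 to 0.06). In uninduced shEIF2B1 and shEIF2B4, the TE of ATG3 was higher by 0.76 and 0.47 than in uninduced shCTRL, that of ATG5 by 0.39 and 0.34, and that of SQSTM1 was lower by 0.25 and 0.40. All 6 were called, against 32.8% and 32.0% of all genes. With the GC trend removed none was by limma, and 1 and 0 of the 10 genes had an unadjusted p under 0.05.

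Of 66 further genes of the pathway, 60 were in RPFs and 62 in total RNA, and for these genes rose and fell refer to the response, corrected for shCTRL. After shEIF2B1, RPFs of 12 rose and 10 fell, with a median of -0.00, in the comparison where 27.3% of all genes were called. Among 13 further receptors 5 rose and 3 fell, led by RETREG1, a receptor for endoplasmic reticulum turnover (0.63, SE 0.15, adjusted p = 0.00686), TOLLIP (0.51, adjusted p = 0.00806) and CCPG1 (0.51, adjusted p = 0.0567). WDR45, a WIPI family protein, rose by 0.63 (SE 0.12, adjusted p = 0.00293) and ATG2A, a lipid transfer protein of the growing membrane, by 0.46. TFE3, a transcription factor of lysosomal genes, rose by 0.44 and MITF of the same family fell by 0.35. Among kinases upstream of ULK1, the AMPK catalytic subunits PRKAA1 and PRKAA2 fell by 0.75 and 0.46, while MLST8, a subunit of the mTOR complexes, rose by 0.42. PIK3R4 fell by 0.41 and RUBCN, an inhibitor of the PI3-kinase complex, rose by 0.42, and of the fusion genes VAMP8 fell by 0.58 and PLEKHM1 rose by 0.46. With the GC trend removed 7 of 58 were called (8.21% of all genes), WDR45, RETREG1, CCPG1 and PRKAA1 among them. In RPFs of uninduced shEIF2B1 against uninduced shCTRL, 20 of the 60 were called higher and 11 lower, where 45.9% of all genes were called. These included TOLLIP, CCPG1, WDR45, ATG2A, TFE3, MITF, PRKAA1, PRKAA2, MLST8, VAMP8 and PLEKHM1. RETREG1, PIK3R4 and RUBCN were not called there. Most of the named responses thus ran from an uninduced level that differed from shCTRL. No further gene of the ULK1 complex, the conjugation systems or the ATG8 family was called in either table after either knockdown by limma, and at most 1 gene of each of these lists had an unadjusted p under 0.05 in a comparison.

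After shEIF2B4, 1 of the 60 further genes was called in RPFs, against 2.75% of all genes, and this was WDR45, which rose by 0.51 (SE 0.14, adjusted p = 0.0758). In total RNA 5 of the 62 rose and none fell by limma, against 3.78% of all genes higher and 1.62% lower. CCPG1 rose by 1.12 (SE 0.16, adjusted p = 0.000294), PRKAB2, a regulatory AMPK subunit, by 0.56 (adjusted p = 0.00864), TAX1BP1, a ubiquitin-binding receptor, by 0.42 (adjusted p = 0.00899), NRBF2 by 0.40 and STX17, the SNARE of the closed autophagosome, by 0.36. With the GC trend removed, 4 of 60 were called in total RNA (5.55% of all genes), CCPG1, PRKAB2, TAX1BP1 and NRBF2, without STX17. In RPFs it gave 3 of 58 (1.96% of all genes), CCPG1, TAX1BP1 and WDR45, all higher. After shEIF2B1 the total RNA of 2 of the 62 rose, against 3.47% of all genes called, CCPG1 by 0.95 (SE 0.18, adjusted p = 0.00716) and RETREG1 by 0.53 (adjusted p = 0.0604). CCPG1, another receptor of the endoplasmic reticulum, was the further gene called higher in total RNA after both knockdowns.

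Likeness between genes was described by the Pearson r of log2 values over the 24 libraries of a table after removal of each week's mean. These libraries share weeks and base composition effects, so r is a description. ATG3 and ATG5 varied together in RPFs (r = 0.85) but not in total RNA (r = 0.10), and ULK1 with MAP1LC3B in RPFs (r = 0.81, against 0.24 in total RNA). ULK1 and ATG3 ran opposite in RPFs (r = -0.65). In total RNA, ATG5 and ATG12 varied together (r = 0.83) and BECN1 ran opposite to WIPI1 (r = -0.72). Over all genes of the RPF table, those most like ULK1 were CTC1, ITPR3 and KIF1A (r = 0.96, 0.95 and 0.94), those most like ATG3 were PDCD10, C11orf58 and RP11-38C17.1 (0.96, 0.95 and 0.95), and those most like SQSTM1 were PDLIM7, WDR83 and TRIM47 (0.88, 0.86 and 0.79). In total RNA those most like MAP1LC3B were PPA2, PTP4A1 and DUS4L (0.88, 0.87 and 0.85).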

How the data were processed

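Ribosome profiling and total RNA of SW480 lysates were examined, with the labels giving line, DOX and replicate. Per the labels and the study's methods, the authors used cutadapt 1.18 for trimming, bowtie2 for alignment to protein-coding transcripts of GENCODE v38 and RSEM for total RNA, with a gene represented by its most expressed transcript. RPFs cleared of rRNA, tRNA and mitochondrial RNA were counted on the CDS. SAMtools 1.9 and R 4.3.1 are named in the processing notes. Replicate 3 joins 2 sequencing runs. The deposited values are log2 values regularized by the authors with DESeq2, separately for RPFs and total RNA. They hold no counts, so depth per library is unknown and no counting precision can be given.

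For the responses, limma 3.58.1 was run under R 4.3.3 (lmFit, eBayes with a mean-variance trend) on 16 libraries. The model held main effects of line and DOX, their interaction and a replicate block, and was used in place of the study's multifactorial model. The knockdowns were contrasted over 24 libraries. Replicates are separate weeks of culture. The numbers pair the samples, since the labels place each replicate in its own week. After group means were removed, 52, 37 and 55 of 60 same-numbered pairs had a correlation over 0.1 in RPFs, total RNA and log2 TE. The 10 genes, the lists of 66 further genes, the tests and the motifs were chosen with earlier results of these data known. Named are the 10 genes, both targets, up to 3 called genes with the largest response of each list in RPFs or total RNA, and the 3 genes most like each called member.

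Positions, lengths and CDS GC content come from GENCODE v29 on GRCh38, another release than the authors', matched by transcript identifier without version for 96.5% of genes in RPFs and 96.2% in total RNA. Sequences were handled in Python 3.11.15 and figures drawn with matplotlib 3.10.9. The fits were tested on simulated data. Alternatives were the fit without the replicate block, without the trend, without the lowest 25% of genes, with median-centred libraries, with all 24 libraries, without shCTRL correction, on weekly changes, at a threshold of 0.05, without each replicate and, chosen after seeing the data, with the CDS GC trend of each library removed. Protein sequences were not used here.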

Additional observations from a re-analysis of the deposited data

Results flagged for a closer look

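Of the 120 groups of 4 libraries formed by the 10 genes in RPFs and total RNA, 6 held a library far from the other 3 by Dixon's test, a distance that chance gives in about 1 group in 20, and all 6 were in total RNA. MAP1LC3B had such a library at both ends of its called response to shEIF2B4: replicate 3 without DOX lay at 9.71, below the others at 10.06 to 10.07, and replicate 1 with DOX lay at 10.46, below the others at 10.73 to 10.79. In the same induced group, GABARAPL1 replicate 2 lay at 8.32, above the others at 7.98 to 8.01, and ATG12 replicate 2 lay at 10.36, below the others at 10.45 to 10.47. ATG5 in uninduced shCTRL lay at 9.92 in replicate 3, below 10.08 to 10.10. ULK1 in uninduced shEIF2B1 lay at 4.28 in replicate 1, below 4.38 to 4.39. Total RNA of BECN1 differed between the knockdowns by 0.45 in the tested contrast of their responses, the single member called there. No explanation of these values was tested.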

How the results depend on the processing

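Of 776 values of single genes under alternatives, 672 kept their direction and side of the threshold, 43 changed sign with neither value called, 32 passed the threshold newly, 26 lost it and 3 changed direction with a called value involved. The call of MAP1LC3B in total RNA after shEIF2B4 was kept in all 13 alternatives, including the fit without the block. Without the replicate block, which the design pairs by week, the members called fell to 0 in each comparison that had any, except total RNA after shEIF2B4. The share of all genes called was then 0% to 0.449% in those comparisons, and 2.92% in total RNA after shEIF2B4. Without shCTRL correction, SQSTM1 RPFs after shEIF2B1 were -0.045 and GABARAPL1 was 0.27 in RPFs and 0.24 in total RNA after shEIF2B1. RPFs then had 7 and 5 members called after shEIF2B1 and shEIF2B4, total RNA had 4 and 3 and TE had 2 and 1, where 49.4% and 23.8%, 34.4% and 34.4%, and 17.1% and 6.21% of all genes were called. On weekly changes, with the pairing kept, RPFs had 6 and 2 and total RNA had 1 and 4, against 36.3% and 18.0%, and 5.66% and 10.1% of all genes. With all 24 libraries they were 1 in RPFs and 0 in TE after shEIF2B1, against 17.0% and 0.406% of all genes. At a threshold of 0.05 they were 0 in TE after shEIF2B1, in total RNA of shCTRL and in the total RNA contrast of knockdowns. Of all genes 2.22%, 0.343% and 0.0335% passed there. With the GC trend removed they were 0 in RPFs and TE after shEIF2B1 (8.21% and 0.191% of all genes) and 3 in total RNA after shEIF2B4 (5.55%). Between uninduced lines they were 0 in RPFs (2.78% in shEIF2B1, 0.660% in shEIF2B4) and 0 in TE (0.545% and 0.287%). Leaving out each replicate moved the calls of all genes as well. In RPFs it gave 1 to 3 after shEIF2B1 (13.7% to 24.4% of all genes) and 0 to 2 after shEIF2B4 (0.386% to 14.5%). In shCTRL it gave 0 to 5 in RPFs (0.0269% to 31.6%), 0 to 4 in total RNA (0.0251% to 20.5%) and 0 to 1 in TE (0% to 5.73%). The contrast of knockdowns in total RNA gave 0 to 0 (0% to 0.0167%). In TE it gave 0 to 1 after shEIF2B1 (0% to 12.6%) and 0 to 2 after shEIF2B4 (0% to 13.1%). Between uninduced lines it gave 0 to 6 in RPFs of shEIF2B4 (0.0269% to 53.0% of all genes). In TE it gave 1 to 2 in shEIF2B1 (12.7% to 25.6%) and 0 to 4 in shEIF2B4 (0.0831% to 52.5%). The causes were not tested. Depth is unknown and limits what can be said of low genes such as ULK1.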
